A study of Mus musculus with 21 samples.

Results

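The Na,K-ATPase beta subunits Atp1b1, Atp1b2 and Atp1b3 and the FXYD proteins Fxyd1, Fxyd2, Fxyd5 and Fxyd6 are described here in mesenchymal cells of leukemic bone marrow. These 7 genes were taken by name from the 26852 Ensembl genes of the expression table, with earlier results of these data known. The Na,K-ATPase sits in the plasma membrane, exports sodium and imports potassium at the cost of ATP, and so maintains the gradients that drive membrane potential, cell volume and sodium-coupled transport. Its catalytic subunit needs a beta subunit, a glycoprotein that helps it fold, carries it to the cell surface and can hold neighbouring cells together. FXYD proteins are small single-span membrane proteins that bind the pump and tune its affinity and rate in a tissue-specific way. In these libraries Atp1b2 was lowest in early cells that had taken up mCherry, Fxyd5 was higher there than in their mCherry-negative neighbours, and Atp1b3 fell in advanced disease alone. Fxyd1, Fxyd5 and Fxyd6 were also lower in advanced disease, with calls that depended on the cell line, the scaling or single libraries, and Atp1b1 showed no difference that passed. Fxyd2, near the floor of the table, was lower in early ch+ and in advanced disease than in ctrl, and in early ch+ than in early ch-. The pooled calls of Fxyd5 and Fxyd2 in early ch+ against early ch- were lost with either line alone in the fit.

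RNA-seq was performed on Nes low mesenchymal cells sorted by GFP from the marrow of Nestin-GFP NSG mice, an immunodeficient strain in which the Nestin reporter marks several stromal cell types. Leukemic mice were transplanted without conditioning at 8 to 12 weeks of age with the human AML cell lines HL60 or ML1, which stably expressed a secreted, lipid-permeable mCherry taken up by neighbouring cells. The labels give 8 to 12 weeks for every library, ctrl included, which the study names as the age at transplantation. For the end of its xenografts the study states a higher age. The labels therefore do not show whether ctrl and leukemic mice were of the same age at sampling. The 21 libraries comprised 3 from mice without leukemia (ctrl), 6 of mCherry-negative (early ch-) and 6 of mCherry-positive cells (early ch+) at low engraftment, and 6 at advanced engraftment, not divided by mCherry (late). Each leukemic group held 3 HL60 and 3 ML1 libraries, and the comparisons ask what changes next to leukemic cells early, away from them, and in established disease. The early ch+ and ch- cells came from the same marrows, but the labels do not say which libraries share a mouse. They also do not say that every library is a separate animal, so p-values measure only the spread between these libraries.

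The labels disagree at 2 points. The treatment label of the 3 ML1 late libraries says unengrafted, against their title and time point. The called late differences of members from ctrl are therefore also given by line. For members other than Fxyd2, the late calls that stood without these libraries are given. Late counts of the transport and marker lists are pooled. The protocol label describes a sort of CD31+ cells, whereas source and tissue labels name Nes low cells. Nes was measured in every library, at a regularized log2 value of 7.14, 7.43 and 7.61 in ctrl, 7.01 to 7.57 in early ch-, 6.61 to 7.65 in early ch+ and 6.66 to 7.87 in late. It was not deregulated in any of the 5 pooled comparisons, whereas the endothelial marker list summed to 179 to 453 on the unlogged scale over all libraries, against 44495 or more for markers of CXCL12-abundant reticular (CAR) cells. Levels below are the authors' regularized log values, in which low values are shrunk toward a common level. They were read as log2, the scale of this transformation in DESeq2, although the study's methods name log10, because the highest value in the table, 22.44, is out of reach for a read count on a log10 scale. Every fold printed rests on that reading. The files give no depth for single libraries, for which the study states only a typical yield, and differences are log2 fold changes from limma with their SE, called deregulated at an adjusted p under 0.1.

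**Figure D1:**
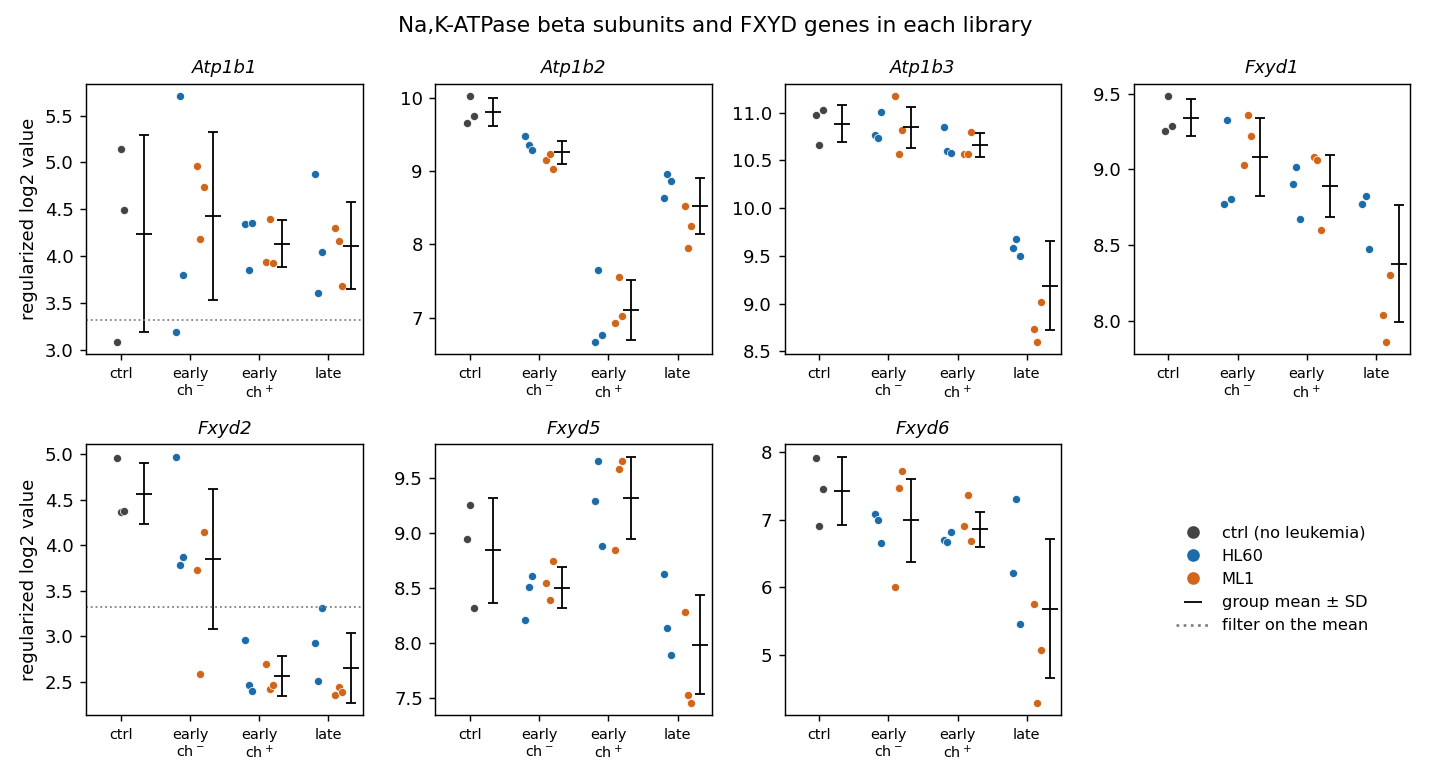
Regularized log2 value (vertical axis) of each of the 7 genes in each of the 21 libraries, by group (horizontal axis), with HL60 in blue, ML1 in orange and ctrl in grey, bars with whiskers for group mean and SD, and a dotted line at the filter of 3.32. The Atp1b2 values of the 4 groups are separate, with early ch+ between 6.67 and 7.65, and late Atp1b3 lies at 9.68 or below.

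Atp1b2 (ENSMUSG00000041329), a beta subunit first known from glia as an adhesion molecule, was lowest in the early cells that had taken up mCherry. In the 3 ctrl libraries its regularized log2 value was 9.66, 9.75 and 10.03. In early ch- it lay at 9.29, 9.35 and 9.49 with HL60 and at 9.03, 9.16 and 9.23 with ML1 (median of 6, 9.26). Values in early ch+ were far lower, at 6.67, 6.76 and 7.65 with HL60 and at 6.93, 7.03 and 7.55 with ML1 (median 6.98). The 6 ch+ libraries thus lay below every other library, in both lines. In late it stood at 8.64, 8.87 and 8.96 with HL60 and at 7.95, 8.25 and 8.52 with ML1 (median 8.58). The order ctrl, early ch-, late and early ch+ held with no overlap between any pair of groups, pooled and within each line. Early ch+ differed from early ch- by −2.16 ± 0.18, a 4.47-fold lower level (limma, adjusted p = 2.26e-09), and from ctrl by −2.72 ± 0.22 (adjusted p = 1.73e-09). Late was below ctrl by −1.28 ± 0.22 (limma, adjusted p = 8.49e-05) and above early ch+ by 1.43 ± 0.18 (adjusted p = 6.21e-07). Early ch- differed from ctrl by −0.56 ± 0.22, which did not pass (limma, adjusted p = 0.293), although all 6 libraries were below all 3 of ctrl.

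The lower Atp1b2 of early ch+ was called in each line. Early ch+ against early ch- gave −2.35 ± 0.24 with HL60 and −1.97 ± 0.24 with ML1 (limma, adjusted p = 1.01e-07 and 2.21e-06), and the difference between the lines was −0.38 with a 95% interval from −1.06 to 0.30. Late against ctrl gave −0.99 ± 0.24 with HL60 and −1.57 ± 0.24 with ML1 (limma, adjusted p = 0.00447 and 7.04e-06). All 3 late HL60 libraries lay above all 3 late ML1 libraries, by 0.58 ± 0.24 with a 95% interval from 0.10 to 1.07, which did not pass (limma, adjusted p = 0.272, and 0.0769 to 0.790 over all 31 alternatives). With each library rescaled to its total of unlogged values, the HL60 late difference was −0.42 and was no longer called (limma, adjusted p = 0.166, and 0.00128 to 0.166 over all 31 alternatives).

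Atp1b3 (ENSMUSG00000032412), a widely expressed beta subunit, did not follow Atp1b2 and fell in late alone. Its ctrl values were 10.66, 10.97 and 11.02. Early ch- ranged from 10.57 to 11.18 (median 10.79) and early ch+ from 10.57 to 10.85 (median 10.59). These 3 groups overlapped. In late the values were 9.50, 9.58 and 9.68 with HL60 and 8.60, 8.73 and 9.02 with ML1 (median 9.26). All 6 late libraries lay below the other 15, and the ML1 libraries below those of HL60. Late differed from ctrl by −1.70 ± 0.19, a 3.25-fold lower level (limma, adjusted p = 2.17e-07), and from early ch+ by −1.48 ± 0.16 (adjusted p = 3.5e-08). Early ch+ differed from early ch- by −0.19 ± 0.16 and from ctrl by −0.22 ± 0.19, neither of which passed (limma, adjusted p = 0.629 and 0.603). The early ch- difference from ctrl was −0.04, with a 95% interval from −0.43 to 0.35.

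The late fall of Atp1b3 was called in both lines, at −1.30 ± 0.16 with HL60 and −2.10 ± 0.16 with ML1 (limma, adjusted p = 1.17e-06 and 2.4e-11, 3 of 3 libraries each below all of ctrl). Late HL60 libraries were higher than late ML1 libraries by 0.81 ± 0.16 (limma, adjusted p = 0.00199). That difference between the lines was the single one called among the members, and it rests on the libraries with the contradictory label. Without them, late against ctrl was −1.30 and was still called.

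Atp1b1 (ENSMUSG00000026576), the beta subunit of most epithelia, was low and varied within groups more than between them. Its values were 3.09, 4.49 and 5.14 in ctrl, 3.20 to 5.71 (median 4.46) in early ch-, 3.85 to 4.39 (median 4.14) in early ch+ and 3.60 to 4.88 (median 4.10) in late. All 4 groups overlapped, in both lines. The 5 pooled differences ran from −0.30 ± 0.36 in early ch+ against early ch- to 0.19 ± 0.44 in early ch- against ctrl, and none passed (limma, adjusted p = 0.758 or more). The 95% interval of late against ctrl reached from −1.03 to 0.77, so that a change of nearly 1 on the log2 scale in either direction could not have been told from none. Its sign in late against ctrl turned with library-total scaling, to 0.57.

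**Figure D2:**
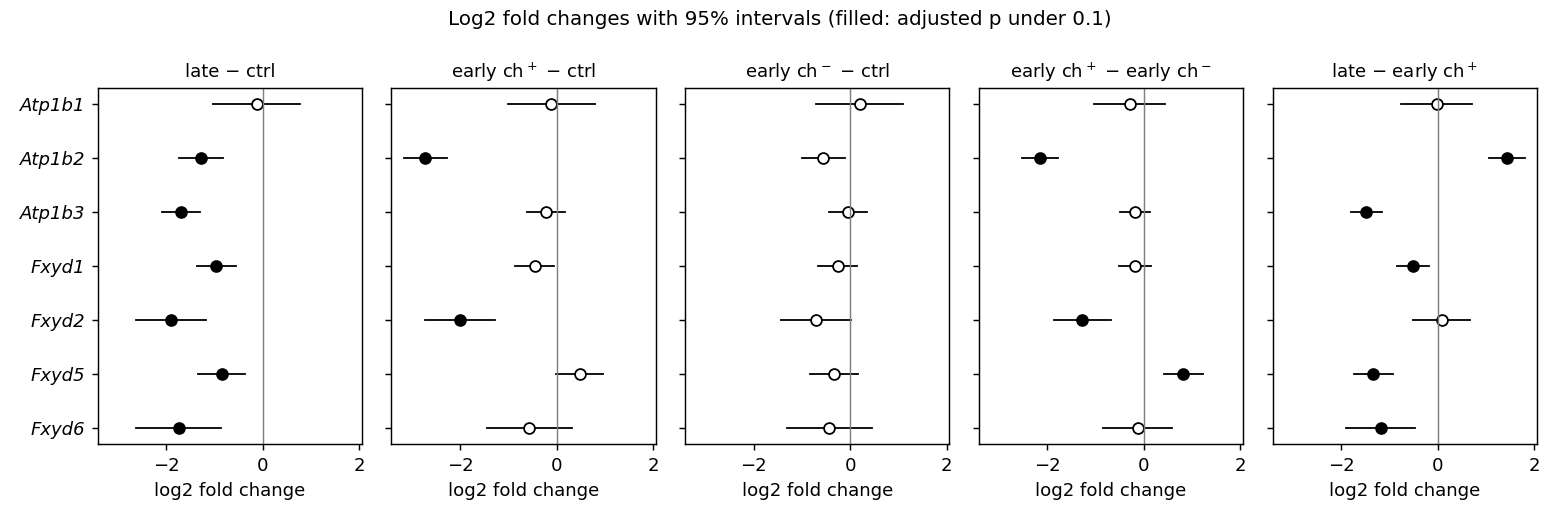
Log2 fold change (horizontal axis) with its 95% interval for each of the 7 genes (vertical axis) in the 5 pooled comparisons, filled where the adjusted p was under 0.1, and Fxyd2 fitted without the filter on low values. Atp1b2 stands at −2.72 and Fxyd2 at −1.997 in early ch+ against ctrl, whereas the other genes lie between −0.57 and 0.48 there.

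The beta subunits were compared with each other per kilobase of their longest coding transcript, on the unlogged scale. Atp1b3 was the most abundant, at 813 to 1045 per kb in ctrl, against 284 to 368 for Atp1b2 and 3.29 to 13.7 for Atp1b1. Atp1b2 then made up 22.0%, 22.38% and 30.8% of the sum of the 3 beta subunits in the ctrl libraries. Its share was 14.6% to 22.3% (median 19.1%) in early ch- and 3.68% to 8.28% (median 5.06%) in early ch+. In late it was 26.2% to 30.8% with HL60 and 28.8% to 37.0% with ML1. The early ch+ libraries therefore had the lowest Atp1b2 share of all libraries, with Atp1b3 at 91.1% to 95.5%, whereas in late, where both subunits were lower than in ctrl, the Atp1b2 share overlapped that of ctrl. Atp1b1 held 0.254% to 2.41% over all libraries. These shares take 1 transcript length per gene, and were not tested.

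**Figure D3:**
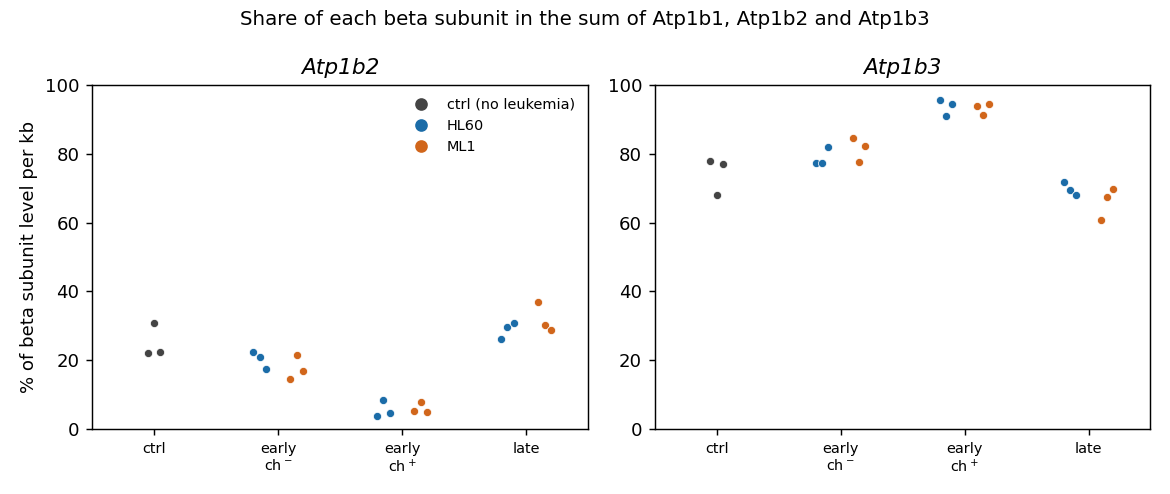
Share of Atp1b2 and of Atp1b3 in the summed level per kilobase of Atp1b1, Atp1b2 and Atp1b3 (vertical axis, percent) in each library, by group (horizontal axis). Early ch+ libraries hold 3.68% to 8.28% Atp1b2, below all other libraries.

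Fxyd5 (ENSMUSG00000009687), dysadherin, is a pump regulator known for lowering cell adhesion. It was the single member higher in early ch+ than in early ch-. Its values were 8.32, 8.95 and 9.26 in ctrl. In early ch- they were 8.21, 8.51 and 8.61 with HL60 and 8.39, 8.55 and 8.75 with ML1 (median 8.53), and in early ch+ 8.88, 9.29 and 9.65 with HL60 and 8.85, 9.58 and 9.65 with ML1 (median 9.44). All 6 ch+ libraries lay above all 6 ch- libraries, and ctrl overlapped both. In late the values were 7.89, 8.13 and 8.62 with HL60 and 7.46, 7.53 and 8.28 with ML1 (median 8.01), below every ch+ library. Of the 6 late libraries, 5 lay below the lowest ctrl library.

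Early ch+ against early ch- gave 0.82 ± 0.20 for Fxyd5, a 1.76-fold higher level (limma, adjusted p = 0.00986, and 0.00104 to 0.161 over 34 alternatives, the call being lost with either line alone in the fit). The estimate was 0.83 ± 0.27 with HL60 and 0.80 ± 0.27 with ML1, and neither line passed by itself (limma, adjusted p = 0.110 and 0.124, and 0.0501 to 0.400 and 0.0357 to 0.350 over 31 alternatives each). Against ctrl, early ch+ stood at 0.48 ± 0.24 and early ch- at −0.34 ± 0.24, and neither passed (limma, adjusted p = 0.322 and 0.629). Late was lower than early ch+ by −1.33 ± 0.20 (limma, adjusted p = 8.12e-06) and than ctrl by −0.85 ± 0.24 (adjusted p = 0.0126). By line, late against ctrl gave −0.63 ± 0.27 with HL60, not called, and −1.08 ± 0.27 with ML1 (limma, adjusted p = 0.162 and 0.00408). The HL60 difference was called without ctrl replicate 375 (−0.88) or late replicate 397 (−0.83), its adjusted p in limma running from 0.0532 to 0.884 over 31 alternatives. That of ML1 lost its call with library-total scaling (−0.27; limma, adjusted p = 0.389, and 0.00100 to 0.389 over 31 alternatives). The call of late against ctrl was lost without the ML1 late libraries (−0.63), without ctrl replicate 374 (−0.65) and with library-total scaling (−0.16). The adjusted p in limma was then 0.141, 0.127 and 0.555, within 0.00323 to 0.555 over all 35 alternatives.

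Fxyd1 (ENSMUSG00000036570), phospholemman, restrains the pump in heart and muscle until it is phosphorylated. Its ctrl values were 9.26, 9.29 and 9.49. Early ch- ranged from 8.77 to 9.36 (median 9.13) and early ch+ from 8.60 to 9.08 (median 8.96). In late it was 8.47, 8.77 and 8.82 with HL60 and 7.86, 8.04 and 8.30 with ML1 (median 8.38). The groups formed a descending order from ctrl through early ch- and early ch+ to late, in which each overlapped its neighbour, while ctrl lay above all of early ch+ and late. Late against ctrl was −0.97 ± 0.20 (limma, adjusted p = 0.000658), with −0.66 ± 0.20 for HL60 and −1.28 ± 0.20 for ML1 (adjusted p = 0.0312 and 1.45e-05). Early ch+ against ctrl was −0.45 ± 0.20 and did not pass (limma, adjusted p = 0.235), nor did early ch+ against early ch- at −0.20 ± 0.16 (adjusted p = 0.620).

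Late Fxyd1 was lower than in early ch+ by −0.51 ± 0.16 (limma, adjusted p = 0.0271, 4 of 6 late libraries below all of ch+). That difference rested on ML1, since without the ML1 late libraries it was −0.20 (limma, adjusted p = 0.639), within 0.00613 to 0.744 over all 35 alternatives, and with library-total scaling it turned to 0.10. The HL60 call in late against ctrl was lost without ctrl replicate 374 (−0.58; limma, adjusted p = 0.118), without late replicate 399 (−0.55; adjusted p = 0.166) and with library-total scaling (−0.09; adjusted p = 0.751, against 0.0205 to 0.751 over 31 alternatives). With that scaling, pooled late against ctrl stood at −0.27 and was not called either (limma, adjusted p = 0.196, against 6.26e-05 to 0.196 over 35 alternatives).

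Fxyd6 (ENSMUSG00000066705), phosphohippolin, best known from brain, was the member with the widest spread in late. It lay at 6.90, 7.46 and 7.92 in ctrl, 5.997 to 7.73 (median 7.04) in early ch- and 6.67 to 7.36 (median 6.76) in early ch+. In late the values were 5.45, 6.21 and 7.31 with HL60 and 4.29, 5.07 and 5.74 with ML1 (median 5.60). The early groups overlapped ctrl, and of the late libraries 1 with HL60 lay within ctrl and 5 below it. Late against ctrl was −1.74 ± 0.43 (limma, adjusted p = 0.00419) and late against early ch+ −1.18 ± 0.35 (adjusted p = 0.0187). The ML1 estimate of late against ctrl was −2.39 ± 0.45 (limma, adjusted p = 0.000159) and that of HL60 −1.10 ± 0.45, which was not called (adjusted p = 0.129, and 0.0305 to 0.517 over 31 alternatives). The HL60 difference was called without ctrl replicate 374 (−1.36), late replicate 398 (−1.59) or early ch- replicate 543 (−1.10), and with HL60 libraries alone in the fit (−1.10; limma, adjusted p = 0.0825). With single libraries left out in turn, it ran from −1.59 to −0.66. The difference between the lines, 1.29 ± 0.45, did not pass either (limma, adjusted p = 0.147, and 0.0420 to 0.719 over 31 alternatives). It was called without late replicates 399 (1.73) or 581 (1.65), without early ch- replicate 543 (1.29) and with array weights (1.08). Leaving out single libraries in turn moved this line difference between 0.80 and 1.73. Without the ML1 late libraries, both late differences lost their call, at −1.10 against ctrl (limma, adjusted p = 0.105, and 0.000167 to 0.105 over 35 alternatives) and −0.53 against early ch+ (adjusted p = 0.487, and 0.000765 to 0.688 over 35 alternatives). The call against early ch+ was also lost with HL60 libraries alone (−0.40) and with library-total scaling (−0.56; limma, adjusted p = 0.142).

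Fxyd2 (ENSMUSG00000059412), the gamma subunit of the kidney pump, was near the floor of the table. Its mean over all libraries, 3.25, was under the filter, and it was fitted with all 26852 genes. Values were 4.37, 4.38 and 4.96 in ctrl and 2.59 to 4.97 (median 3.83) in early ch-. They were 2.40 to 2.96 (median 2.47) in early ch+ and 2.35 to 3.32 (median 2.47) in late. All early ch+ and late libraries lay below ctrl, and early ch- overlapped all 3 other groups. At such levels the regularization shrinks differences. Early ch+ differed from ctrl by −1.997 ± 0.35 (limma, adjusted p = 0.00443) and from early ch- by −1.28 ± 0.28 (adjusted p = 0.0195), with 4 of 6 ch+ libraries below all of early ch-. Late differed from ctrl by −1.91 ± 0.35 (limma, adjusted p = 0.00122) and from early ch+ by 0.09 ± 0.28 (adjusted p = 0.907). With library-total scaling, late Fxyd2 was called higher than early ch+ by 0.70 (limma, adjusted p = 0.0237, and 0.0237 to 0.971 over 33 alternatives), where the median of all genes stood at 0.63.

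In these fits without a filter, 9.57% of genes were called in late against ctrl, 2.21% in early ch+ against ctrl, 2.67% in early ch+ against early ch-, 8.81% in late against early ch+ and 0.689% in early ch- against ctrl, where Fxyd2 at −0.72 ± 0.35 was not called (limma, adjusted p = 0.599). By line, Fxyd2 was called in late against ctrl with HL60 (−1.65 ± 0.38, among 5.26% of genes) and ML1 (−2.17 ± 0.38, among 10.5%). It was also called in early ch+ against ctrl with HL60 (−1.96 ± 0.38, among 1.59%) and ML1 (−2.04 ± 0.38, among 2.35%). Early ch+ against early ch- was called with HL60 (−1.60 ± 0.38, among 1.51%) but not with ML1 (−0.96 ± 0.38, where 1.39% were called), and the difference between the lines was −0.64 with a 95% interval from −1.76 to 0.49. The HL60 call was lost without early ch+ replicates 524 (−1.52) or 525 (−1.49) and without early ch- replicate 527 (−1.22), and the HL60 differences of early ch+ from ctrl and from early ch- lost theirs when only the groups compared were fitted. With each line alone in the fit of pooled groups, the difference of early ch+ from early ch- was not called (limma, adjusted p = 0.124 with HL60 and 0.451 with ML1, and 0.000949 to 0.451 over 32 alternatives).

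Read together in late against ctrl, 5 of the 6 members tested were lower and 0 higher, namely Atp1b2, Atp1b3, Fxyd1, Fxyd5 and Fxyd6. Among all 12976 tested genes, 21.5% were called in either direction and 11.4% were lower. The median difference of the 6 members was −1.12, against 0.02 for all tested genes. With HL60, 3 of these 6 were called, all lower (Atp1b2, Atp1b3 and Fxyd1), where 13.7% of genes were called. With ML1 the number was 5 of these 6, all lower, where 22.0% were called. Fxyd2, fitted without the filter and outside these counts, was called lower with each line. Without the ML1 late libraries, a fit added after the data were seen, Atp1b2, Atp1b3 and Fxyd1 were still called. The sorted pools do not show whether a lower member reflects fewer cells of a type or less RNA per cell, which cannot be told apart here.

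Library-total scaling bears on the late results, because every late library had a lower sum of unlogged values than every ctrl library, and the gene CT010467.1 alone held 29.7% to 34.2% of them in ctrl and 16.8% to 26.2% in late. Under it the median difference of all genes moved from 0.02 to 0.71 in late against ctrl and the calls from 1321 higher and 1474 lower to 7786 higher and 516 lower. In late against early ch+ the median moved to 0.63 and the calls from 1140 higher and 1415 lower to 8443 higher and 588 lower. While the median of all genes stood at 0.71, Atp1b2 stood at −0.59, Atp1b3 at −1.01 and Fxyd6 at −1.05 in late against ctrl, all still called, while Fxyd1 at −0.27 and Fxyd5 at −0.16 were not. Requiring a difference of at least 1 left Atp1b2, Atp1b3 and Fxyd6.

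In early ch+ against ctrl, 1 of the 6 tested members was called, Atp1b2, where 6.17% of genes were called. Of these 6, Atp1b2 was also the single one called with HL60, where 5.33% of genes were called, and with ML1, where 6.69% were. Fxyd2, fitted without the filter and outside these counts, was called lower in both lines. In early ch- against ctrl, limma called 0 of the 6 tested members, with Atp1b2 alone at an unadjusted p under 0.05, where 1.92% of genes were called. The count was 0 of the 6 with HL60 (0 at an unadjusted p under 0.05, 1.57% of genes called). It was 0 of the 6 with ML1 (1 at an unadjusted p under 0.05, Atp1b2, with 2.34% of genes called). Fxyd2, outside these counts, stood at −1.08 with ML1 and was not called (limma, unadjusted p = 0.0109, adjusted p = 0.324). The ML1 difference of Atp1b2, −0.67 ± 0.24 (limma, adjusted p = 0.176), was called with library-total scaling (−0.80; adjusted p = 0.0891, the lowest of 0.0891 to 0.390 over 31 alternatives). These counts give no result on the members as a group.

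In early ch+ against early ch-, 2 of the 6 tested members were called, Atp1b2 lower and Fxyd5 higher, where 6.26% of genes were called. In HL60, 1 of the 6 was called, where 3.92% of genes were, and in ML1, 1 of the 6, where 4.25% were, Atp1b2 in both. Leaving out single libraries brought Fxyd5 to a call in HL60 and in ML1 under some settings, and Atp1b2 was called under all of the alternatives run for the pooled comparison. In late against early ch+, 5 of 6 were called, with Atp1b2 higher and Atp1b3, Fxyd1, Fxyd5 and Fxyd6 lower, where 19.7% of genes were called and 10.9% were lower. Late and early ch+ each share the ctrl libraries in their comparison with ctrl, and early ch+ enters both comparisons here. Without the ML1 late libraries, 3 were called in late against early ch+, Atp1b2, Atp1b3 and Fxyd5.

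Between the lines, 1 member was called in late (Atp1b3, higher with HL60), where 4.09% of genes were called, while 4 members had an unadjusted p under 0.05, all higher with HL60. Among all 12976 tested genes, 1419 had an unadjusted p under 0.05 there. Most calls over all genes went the same way, with 410 higher and 121 lower with HL60. Fxyd1, at 0.62 ± 0.20, was 1 of the 4 members (limma, adjusted p = 0.102, and 0.0229 to 0.432 over 31 alternatives), so that its call depended on the setting. In early ch+, limma called 0 members, where 0.0154% of genes were called, and in early ch- 0, where 0.0539% were. The line difference of early ch+ against early ch- was called for 0 members, where 0.00771% of genes were. In these 3 comparisons, 0 members had an unadjusted p under 0.05.

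Across the 21 libraries the members did not vary as 1 block. Pearson's r was 0.805 between Atp1b3 and Fxyd1, 0.751 between Atp1b3 and Fxyd6 and 0.823 between Fxyd1 and Fxyd6, all of which are low in late. Atp1b2 stood apart, with r of 0.123 to Atp1b3, 0.366 to Fxyd1 and −0.352 to Fxyd5, and so did Atp1b1, with r of 0.107 to Atp1b3, 0.301 to Fxyd1 and 0.130 to Fxyd5. These values describe libraries that share their groups, and were not tested. Outside the members, the genes most like Atp1b2 were Kcnk3, an acid-sensitive potassium leak channel (r = 0.939), Myh11, the smooth muscle myosin heavy chain (0.925), and Gucy1a1, a subunit of the nitric oxide receptor (0.923). The most like Atp1b3 were Col5a2, a type V collagen chain (r = 0.979), the semaphorin Sema3d (0.976) and the RNA-binding protein Hdlbp (0.976).

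For Fxyd1 the nearest genes were Lars2, a mitochondrial leucyl-tRNA synthetase (r = 0.909), the parathyroid hormone receptor Pth1r (0.897) and the orphan receptor Gprc5c (0.888). For Fxyd5 they were Zfp385b (0.893), Ly6c1 (0.887) and the netrin Ntn4 (0.885). For Fxyd6 they were the matrix protein Vit (0.885), the prostacyclin synthase Ptgis (0.885) and the phospholipase Pla2g5 (0.881). Atp1b1, with its large spread within groups, had weaker partners in Faf2 (0.760), 4933439C10Rik (0.739) and Tor2a (0.727).

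Of the other beta subunit and FXYD genes, Atp1b4, Fxyd4 and Fxyd7 were under the filter. Fxyd3, first described in mammary tumours, was lower in early ch+ than in early ch- (−1.27 ± 0.30; limma, adjusted p = 0.00708). Its means were 3.86 in ctrl, 4.30 in early ch-, 3.03 in early ch+ and 3.23 in late, so that it was near the floor in the last 2 groups and passed the filter through the others. Its differences from ctrl were −0.83 ± 0.36 in early ch+ and −0.63 ± 0.36 in late, and neither passed (limma, adjusted p = 0.232 and 0.269).

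Genes that use or set the same ion gradients were listed apart. Among 16 tested sodium-coupled exchangers and cotransporters, late against ctrl called 3, near the 21.5% of all genes called there, so the count gives no result on the list. Lower were the sodium-calcium exchanger Slc8a3 (−2.80 ± 0.33; limma, adjusted p = 3.93e-07) and the sodium-proton exchanger Slc9a2 (−3.13 ± 0.42; adjusted p = 2.42e-06), and higher was Slc9a9 (1.05 ± 0.34; adjusted p = 0.0290). The sodium-potassium-chloride cotransporter Slc12a2 was lower in early ch+ than in early ch- (−0.58 ± 0.17; limma, adjusted p = 0.0464), the 1 called of 16, where 6.26% of all genes were. Against ctrl, limma called 0 of 16 in early ch+ and 0 in early ch-, with 3 and 2 at an unadjusted p under 0.05, and late against early ch+ called 2, both lower, where 19.7% of all genes were called. Of 3 tested potassium-chloride cotransporters, limma called 0 in each of the 5 pooled comparisons, with 0 at an unadjusted p under 0.05.

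Among 6 tested calcium pumps, late against ctrl called 2, both lower, where 21.5% of all genes were called, the plasma membrane pump Atp2b1 (−1.08 ± 0.12; limma, adjusted p = 1.11e-07) and Atp2a3 (−1.72 ± 0.40; adjusted p = 0.00268). Of these pumps, 1 was higher and 3 lower in early ch+ than in ctrl (6.17% of all genes called), 1 was higher in early ch- than in ctrl (1.92%), and 2 were higher and 2 lower in late than in early ch+ (19.7%). Among the pumps tested, Atp2a1 had a mean of 2.47 in ctrl, 4.63 in early ch-, 5.71 in early ch+ and 2.67 in late. It passed the filter through the early groups, so being tested depended in part on being high there. The reticulum pump Atp2a2 was the 1 called, lower, in early ch+ against early ch-, where 6.26% of all genes were (−0.45 ± 0.14; limma, adjusted p = 0.0567). Among 7 tested kinases and interactors of sodium transport, late against ctrl called 3, where 21.5% of all genes were called, Sgk3 (−1.26 ± 0.21; limma, adjusted p = 5.28e-05), Wnk1 (−0.41 ± 0.12; adjusted p = 0.0216) and Sik1 (0.94 ± 0.27; adjusted p = 0.0149). Sik1 was also higher in early ch- than in ctrl (1.05 ± 0.27; limma, adjusted p = 0.0492; 1.92% of all genes called), and 2 of the 7 were lower in late than in early ch+ (19.7%). In early ch+, limma called 0 against ctrl and 0 against early ch-, with 1 and 2 at an unadjusted p under 0.05.

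Markers of other cell types moved with the members, and their part in the results was not tested. All marker counts from here on stand beside the share of all tested genes called in the same comparison. That share was 21.5% in late against ctrl, 19.7% in late against early ch+ and 6.17% in early ch+ against ctrl. It was 6.26% in early ch+ against early ch- and 1.92% in early ch- against ctrl. Counts near these shares give no result on a list. Where Atp1b2 was lowest, in early ch+, 9 of 11 smooth muscle markers were lower than in early ch- and 9 lower than in ctrl, and 7 were higher in late than in early ch+, with 7 lower in late than in ctrl. Their summed unlogged level was 15195 to 33195 in ctrl, 10894 to 19442 in early ch-, 4892 to 7927 in early ch+ and 6927 to 11966 in late, with Myh11 most abundant. The group medians stood in the order of Atp1b2, but, unlike Atp1b2, each group overlapped its neighbour in that order. Between early ch- and ctrl, limma called 0 of these 11, with 4 at an unadjusted p under 0.05. Of 6 pericyte markers (most abundant Rgs5), 2 were lower in early ch+ than in ctrl and 2 than in early ch-, and in late 3 were higher and 2 lower than in ctrl, with sums of 13563 to 16510 in ctrl, 12453 to 16334 in early ch-, 10025 to 11010 in early ch+ and 18331 to 25173 in late. Of 11 tested chondrocyte markers (most abundant Col2a1), 10 were lower in early ch+ than in ctrl, 10 than in early ch- and 11 in late than in ctrl, with sums of 116137 to 215484 in ctrl, 74994 to 130130 in early ch-, 35518 to 60480 in early ch+ and 5150 to 29940 in late.

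Where Atp1b3 was lowest, in late, 7 of 8 osteoblast markers were lower than in ctrl and 7 lower than in early ch+, with 0 called in early ch+ against ctrl (limma, 0 at an unadjusted p under 0.05). The osteoblast sum, most of it Col1a1, was 1.24e+06 to 1.69e+06 in ctrl, 1.01e+06 to 1.43e+06 in early ch-, 922239 to 1.09e+06 in early ch+, 381213 to 486460 in late HL60 and 64539 to 111909 in late ML1, the lines in the order of Atp1b3. CAR cell markers (most abundant Cxcl12) went the other way, with 6 of 8 higher and 1 lower in late than in ctrl and 6 higher in early ch+ than in ctrl, and sums of 44495 to 69598 in ctrl, 47403 to 91247 in early ch-, 75863 to 115046 in early ch+ and 106551 to 132381 in late. Of 6 tested Schwann cell markers (most abundant S100b, with Gfap below 0 on the log2 scale), 2 were lower in late and 3 in early ch+ than in ctrl, while against early ch- 4 were lower and 1 higher in early ch+. Their sums were 572 to 677 in ctrl, 401 to 658 in early ch-, 349 to 628 in early ch+ and 272 to 455 in late. The endothelial list (6 tested, most abundant Cdh5) had 0 called by limma in each early comparison (0 at an unadjusted p under 0.05) and in late against ctrl, where 1 was at an unadjusted p under 0.05, and 3 lower in late than in early ch+.

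Blood cell markers set both early groups apart from ctrl and late, although hematopoietic cells had been depleted with beads and the rest stained for CD45 and Ter119 before the sort. All 9 (most abundant S100a9) were higher in early ch+ and 8 in early ch- than in ctrl, all 9 were lower in late than in early ch+, and limma called 0 between ch+ and ch- (0 at an unadjusted p under 0.05). Their sum was 88.7 to 508 in ctrl, 1242 to 2974 in early ch-, 1023 to 2587 in early ch+ and 76.7 to 113 in late. The 9 red cell markers (most abundant Hbb-bs) gave the same counts in these comparisons, with sums of 341 to 709, 5113 to 10274, 4385 to 12961 and 102 to 138. Of 8 skeletal muscle markers (most abundant Acta1), Myh1, Myh4 and Tnnc2 were under the filter. The 5 tested were higher in early ch+ than in ctrl and lower in late than in early ch+, but Mylpf, at a mean of 2.41 in ctrl and 2.49 in late, passed the filter through the early groups, so being tested depended in part on being high there. The list had sums of 56.9 to 128 in ctrl, 91.4 to 368 in early ch-, 164 to 641 in early ch+ and 39.5 to 44.2 in late. Of the sorting markers Nes, Pecam1 and Ptprc, most abundant Nes, Ptprc was higher in early ch+ than in ctrl, with the limit given above that it passed the filter through the early groups. List genes were fitted on the deposited scale alone.

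The 7 members are protein-coding genes of the GRCm38 annotation. Atp1b1 spans chr1:164437109-164458355 (minus strand) and shares 617 bases with Nme7 on the plus strand. The study calls its reads strand-specific and counted them so, whereas the cDNA kit named in the labels is not known to keep the strand of the RNA. The part of Nme7 reads in the low Atp1b1 values was not tested. Atp1b2 lies at chr11:69599736-69605942 (minus) and Atp1b3 at chr9:96332655-96364442 (minus), neither overlapping another gene. Fxyd1 at chr7:31051678-31057199 and Fxyd5 at chr7:31032722-31042481 are neighbours on the minus strand, 9196 bases apart, and Fxyd5 contains the microRNA gene Mir7050. Fxyd6 at chr9:45370185-45396159 and Fxyd2 at chr9:45399669-45410278 are neighbours on the plus strand, 3509 bases apart. Neighbours did not move together throughout, since Fxyd5 was higher in early ch+ than in early ch- while Fxyd1 stood at −0.20, and Fxyd2 was lower there while Fxyd6 stood at −0.13.

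RefSeq promoter entries (GRCm38.p6) matched 5 of the 7 members. Those of the 4 matched members called lower in pooled late against ctrl are shown, although Fxyd5 and Fxyd6 were not called with HL60. Each sequence is taken from the 250 bases before the annotated start, 5′ to 3′ on the strand of the gene, without bases that lie in an annotated exon. Capitals mark GC boxes (GGGCGG) and CCAAT boxes (CCAAT), and TATA boxes (TATAAA) and E-boxes (CACGTG) were also searched, all on both strands. In the 250 bases before the start, 32.7% of the 32851 RefSeq promoters hold the GC box, 33.8% the CCAAT box, 12.4% the TATA box and 6.02% the E-box. The sequences are Atp1b3 at chr9:96364443-96364681 (minus, 239 bases), Fxyd1 at chr7:31054854-31055103 (minus, 250 bases, inside the span of the gene), Fxyd5 at chr7:31042482-31042581 (minus, 100 bases) and Fxyd6 at chr9:45369935-45370184 (plus, 250 bases).
Atp1b3: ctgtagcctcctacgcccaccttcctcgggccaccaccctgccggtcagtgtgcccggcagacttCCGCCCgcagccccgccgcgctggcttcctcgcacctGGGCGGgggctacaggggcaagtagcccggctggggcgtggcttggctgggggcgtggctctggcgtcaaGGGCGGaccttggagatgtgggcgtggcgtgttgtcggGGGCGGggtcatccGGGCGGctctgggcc
Fxyd1: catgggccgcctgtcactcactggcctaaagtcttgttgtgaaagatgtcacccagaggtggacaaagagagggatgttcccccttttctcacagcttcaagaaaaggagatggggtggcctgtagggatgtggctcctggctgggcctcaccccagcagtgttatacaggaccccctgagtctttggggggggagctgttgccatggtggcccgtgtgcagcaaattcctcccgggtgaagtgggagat
Fxyd5: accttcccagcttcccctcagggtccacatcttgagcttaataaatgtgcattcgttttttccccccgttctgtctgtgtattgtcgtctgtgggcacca
Fxyd6: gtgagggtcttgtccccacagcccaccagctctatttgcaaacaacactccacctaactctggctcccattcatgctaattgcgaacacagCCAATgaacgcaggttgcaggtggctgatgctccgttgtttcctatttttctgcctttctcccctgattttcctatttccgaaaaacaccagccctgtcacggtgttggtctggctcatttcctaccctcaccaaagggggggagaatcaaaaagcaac
The Atp1b3 stretch shown holds 5 GC boxes and none of the other motifs, Fxyd6 holds 1 CCAAT box and none of the others, and these letters are not in the stretches of Fxyd1 and Fxyd5. Atp1b3 has another promoter entry, at chr9:96363716-96363965 (minus), with 1 E-box and 0 GC boxes. None of these motifs was found in all 4 stretches.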

How the data were processed

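RNA was measured in 21 libraries of FACS-sorted Nes low cells. The authors aligned reads to mm10 with STAR 2.5.1b, counted them per gene with RSEM 1.2.29 and normalized them with DESeq2 1.10.1, versions per the labels. The deposited table holds regularized log2 values, used as deposited. All 21 value columns matched a library. Gene identifiers were mapped to symbols with GENCODE, for 26686 of 26852 genes. The 12976 genes with a mean of at least 3.32 (log2 of 10) were tested in R 4.3.3 using limma 3.58.1, its variance prior following the mean level, and no covariate, in a fit with 4 groups and a fit with 7 groups, 2-sided, with Benjamini-Hochberg adjustment within each comparison. Fxyd2, under the filter, was taken from the same fits without it. The fits were tested on simulated data. The text names all members, Fxyd3, from the lists of ion transport up to 4 genes with the smallest adjusted p in late against ctrl and every gene called in ch+ against ch-, from each marker list its most abundant gene, and for each tested member the 3 genes with the highest Pearson r. The members and lists were chosen with earlier results of these data known. Alternatives varied the filter, scaling, variance model, libraries and threshold.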

Additional observations from a re-analysis of the deposited data

Results flagged for a closer look

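In early ch+, 1 ML1 library (539) had an Fxyd6 value of 7.36, with the nearest of the other 5 libraries at 6.91, a gap large against the range of the group. It was 1 of 21 groups of a member looked at in this way, and chance alone marks about 1 in 20.

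Atp1b3 in late was higher in HL60 than in ML1 by 0.81 ± 0.16 on the log2 scale (SE; limma, adjusted p = 0.00199), with 3 of 3 HL60 libraries above 3 of 3 ML1 libraries. The treatment label of the ML1 libraries contradicts their title, and the part of this in the difference was not tested.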

How the results depend on the processing

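Among 119 differences of the members, each under up to 35 alternatives, no called difference changed sign except that of Fxyd1 in late against ch+ with libraries rescaled to the mean library total (0.10). Of the 3757 alternatives to these differences, 3598 kept the sign and the side of the threshold, 33 lost a call, 31 gained one and 95 changed sign, 0 of them with a call of their own. No paired analysis was made. Early ch+ and ch- cells came from the same marrows, but the labels give the groups no shared replicate numbers and do not say which libraries share a mouse. The depth of single libraries is not given, so the counting error behind the low levels of Atp1b1 and Fxyd2 could not be given. The fit without the ML1 late libraries was chosen after seeing the data. The rescaling moved the median of all tested genes by construction, and a higher minimum difference or a stricter adjusted p removed calls by construction. For the other settings, the cause was not tested. Counts below are of limma calls, with the value from the fit of the text in parentheses, and counts of members leave out Fxyd2.

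Without the filter, called genes numbered 427 (from 692) in ch+ against ctrl (HL60), 133 (from 204) in ch- against ctrl (HL60) and 178 (from 304) in ch- against ctrl (ML1). They numbered 8 (from 2) in HL60 against ML1 in ch+ and 1 (from 7) in HL60 against ML1 in ch-. With a mean of at least 5, called genes numbered 0 (from 1) in the line difference of ch+ against ch-. Called members numbered 2 (from 1) in HL60 against ML1 in late. With quantile normalization, called genes numbered 4 (from 2) in HL60 against ML1 in ch+. The sign turned for Atp1b1 (0.0015) in late against ch+, Atp1b3 (0.0055) in ch- against ctrl (HL60), Atp1b1 (−0.021) in HL60 against ML1 in ch+ and Atp1b3 (0.013) in HL60 against ML1 in ch-. With libraries rescaled to the mean library total, called genes numbered 8302 (from 2795) in late against ctrl, 9031 (from 2555) in late against ch+, 5527 (from 1778) in late against ctrl (HL60) and 8781 (from 2851) in late against ctrl (ML1). Called members numbered 3 (from 5) in late against ctrl, 3 (from 5) in late against ch+ and 1 (from 3) in late against ctrl (HL60). They numbered 2 (from 1) in ch+ against ch- (HL60), 1 (from 0) in ch- against ctrl (ML1) and 2 (from 1) in ch+ against ch- (ML1). The sign turned for Atp1b1 (0.57) in late against ctrl, Fxyd6 (0.019) in ch+ against ch-, Atp1b1 (0.59) in late against ch+ and Fxyd1 (0.10) in late against ch+. It also turned for Atp1b1 (0.50) in late against ctrl (HL60), Atp1b1 (0.042) in ch+ against ctrl (HL60), Atp1b1 (0.067) in ch+ against ch- (HL60) and Fxyd1 (0.019) in ch+ against ch- (HL60). It also turned for Atp1b1 (0.63) in late against ctrl (ML1), Fxyd6 (0.10) in ch+ against ch- (ML1), Atp1b1 (−0.12) in HL60 against ML1 in late and Atp1b3 (0.088) in HL60 against ML1 in ch-. It also turned for Atp1b3 (−0.015) in the line difference of ch+ against ch- and Fxyd5 (−0.026) in the line difference of ch+ against ch-. Without the trend, called genes numbered 170 (from 304) in ch- against ctrl (ML1), 0 (from 2) in HL60 against ML1 in ch+ and 0 (from 7) in HL60 against ML1 in ch-. With robust variances, called genes numbered 1 (from 2) in HL60 against ML1 in ch+. With array weights, called genes numbered 156 (from 249) in ch- against ctrl, 533 (from 868) in ch+ against ctrl (ML1), 190 (from 304) in ch- against ctrl (ML1) and 362 (from 552) in ch+ against ch- (ML1). They numbered 1183 (from 531) in HL60 against ML1 in late, 0 (from 2) in HL60 against ML1 in ch+ and 0 (from 1) in the line difference of ch+ against ch-. Called members numbered 4 (from 1) in HL60 against ML1 in late. The sign turned for Atp1b1 (0.14) in ch+ against ch- (HL60), Atp1b3 (0.013) in HL60 against ML1 in ch- and Fxyd6 (0.093) in the line difference of ch+ against ch-. With only the groups compared in the fit, called genes numbered 126 (from 204) in ch- against ctrl (HL60), 552 (from 868) in ch+ against ctrl (ML1) and 181 (from 304) in ch- against ctrl (ML1). They numbered 990 (from 531) in HL60 against ML1 in late and 4 (from 7) in HL60 against ML1 in ch-. Called members numbered 2 (from 1) in ch+ against ch- (HL60) and 3 (from 1) in HL60 against ML1 in late. At an adjusted p under 0.05, called genes numbered 512 (from 800) in ch+ against ctrl, 156 (from 249) in ch- against ctrl and 461 (from 692) in ch+ against ctrl (HL60). They numbered 133 (from 204) in ch- against ctrl (HL60), 178 (from 304) in ch- against ctrl (ML1) and 0 (from 7) in HL60 against ML1 in ch-. With an absolute difference of at least 1 required, called genes numbered 1521 (from 2795) in late against ctrl, 478 (from 800) in ch+ against ctrl and 385 (from 812) in ch+ against ch-. They numbered 1054 (from 2555) in late against ch+, 1113 (from 1778) in late against ctrl (HL60) and 417 (from 692) in ch+ against ctrl (HL60). They numbered 1899 (from 2851) in late against ctrl (ML1), 549 (from 868) in ch+ against ctrl (ML1) and 352 (from 531) in HL60 against ML1 in late. Called members numbered 3 (from 5) in late against ctrl, 1 (from 2) in ch+ against ch-, 1 (from 3) in late against ctrl (HL60) and 0 (from 1) in HL60 against ML1 in late. With HL60 libraries alone, called genes numbered 1756 (from 2795) in late against ctrl, 478 (from 812) in ch+ against ch- and 1286 (from 2555) in late against ch+. Called members numbered 1 (from 2) in ch+ against ch- and 3 (from 5) in late against ch+. The sign turned for Atp1b1 (−0.0033) in ch- against ctrl. With ML1 libraries alone, called genes numbered 460 (from 812) in ch+ against ch-. Called members numbered 1 (from 2) in ch+ against ch-. The sign turned for Fxyd2 (−0.13) in late against ch+. Without the ML1 late libraries, called genes numbered 1613 (from 2795) in late against ctrl and 1475 (from 2555) in late against ch+. Called members numbered 3 (from 5) in late against ctrl and 3 (from 5) in late against ch+. The sign turned for Atp1b1 (0.041) in late against ch+.

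Under that rescaling, the share of calls that were lower became 6.22% (from 52.7%) in late against ctrl, 33.3% (from 44.6%) in ch+ against ctrl, 58.1% (from 41.0%) in ch- against ctrl and 21.4% (from 42.9%) in ch+ against ch-. It became 6.51% (from 55.4%) in late against ch+, 6.86% (from 52.9%) in late against ctrl (HL60), 29.7% (from 46.1%) in ch+ against ctrl (HL60) and 25.2% (from 42.2%) in ch+ against ch- (HL60). It became 6.95% (from 55.0%) in late against ctrl (ML1), 67.7% (from 39.5%) in ch- against ctrl (ML1), 21.4% (from 44.9%) in ch+ against ch- (ML1) and 63.0% (from 22.8%) in HL60 against ML1 in late. It became 14.3% (from 28.6%) in HL60 against ML1 in ch-.

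With each of the 21 libraries left out in turn, these results changed sign or moved. Atp1b1 ran from −0.70 to 0.32 in late against ctrl, −0.68 to 0.35 in ch+ against ctrl, −0.39 to 0.64 in ch- against ctrl and −0.17 to 0.079 in late against ch+. For Atp1b1 the range was −0.64 to 0.39 in late against ctrl (HL60), −0.63 to 0.39 in ch+ against ctrl (HL60), −0.74 to 0.52 in ch- against ctrl (HL60) and −0.57 to 0.68 in ch+ against ch- (HL60). For Atp1b1 the range was −0.77 to 0.26 in late against ctrl (ML1), −0.73 to 0.30 in ch+ against ctrl (ML1), −0.19 to 0.84 in ch- against ctrl (ML1) and −0.23 to 0.41 in HL60 against ML1 in late. For Atp1b1 the range was −1.13 to 0.13 in HL60 against ML1 in ch- and −0.032 to 1.22 in the line difference of ch+ against ch-. Atp1b2 ran from −0.45 to 0.049 in HL60 against ML1 in ch+. Atp1b3 ran from −0.15 to 0.029 in ch- against ctrl, −0.16 to 0.021 in ch- against ctrl (HL60) and −0.19 to 0.11 in ch- against ctrl (ML1). For Atp1b3 the range was −0.060 to 0.11 in HL60 against ML1 in ch+, −0.16 to 0.14 in HL60 against ML1 in ch- and −0.12 to 0.19 in the line difference of ch+ against ch-. Fxyd1 ran from −0.20 to 0.078 in ch+ against ch- (HL60) and −0.21 to 0.044 in HL60 against ML1 in ch+. Fxyd2 ran from −0.045 to 0.17 in late against ch+ and −0.095 to 0.19 in HL60 against ML1 in ch+. Fxyd5 ran from −0.34 to 0.11 in HL60 against ML1 in ch+ and −0.22 to 0.23 in the line difference of ch+ against ch-. Fxyd6 ran from −0.33 to 0.015 in ch+ against ch-, −0.69 to 0.18 in ch- against ctrl (ML1) and −0.61 to 0.25 in ch+ against ch- (ML1). For Fxyd6 the range was −0.68 to 0.18 in HL60 against ML1 in ch- and −0.44 to 0.43 in the line difference of ch+ against ch-. Called genes ranged from 136 to 280 in ch- against ctrl, 106 to 227 in ch- against ctrl (HL60), 295 to 541 in ch+ against ch- (HL60) and 180 to 340 in ch- against ctrl (ML1). They ranged from 0 to 6 in HL60 against ML1 in ch+, 0 to 10 in HL60 against ML1 in ch- and 0 to 2 in the line difference of ch+ against ch-. Called members ranged from 1 to 2 in ch+ against ch- (HL60), 1 to 2 in ch+ against ch- (ML1) and 1 to 3 in HL60 against ML1 in late.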
